A study of Homo sapiens with 16 samples.

Results

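The gene PCDH9 (protocadherin 9, ENSG00000184226.15) lies on the minus strand of chromosome 13 at chr13:66302834-67230445 of the human genome build hg38 and is 927612 bp long. Its locus was taken as the window from 66.3 to 67.24 Mb, 940000 bp, and every peak with its midpoint in that window was a member. Of the 40118 peaks in the 9 deposited peak lists, 708 (1.76%) were members, and 8 of the 9 lists held at least 1. The window is 0.822% of chromosome 13 and 0.0310% of hg38 without chromosome Y. The members were chosen by the position of their midpoints, in a window itself selected on its known density of peaks, so the counts, covered shares and folds below describe it, and only the difference between CT and KD lists was tested.

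Each list came from 1 library of human embryonic kidney HEK293T cells, an established line, immunoprecipitated with 1H6, an antibody against G-quadruplexes. In AbC G4-ChIP, the antibody capture method of the study, lentivirally transduced cells carried either a non-targeting shRNA (CT) or an shRNA against CGGBP1 (KD), a protein known to bind CGG repeats. CTnuc and KDnuc had no control DNA named in the labels and were sequenced on Ion Torrent S5, CTut and KDut had 500 ng of a G-quadruplex-forming control plasmid added to the lysate, and CTtr and KDtr were transfected with 1.25 µg of it per dish for 12 hours. For the ut and tr forms the paper also mixed in an equal amount of a carrier plasmid with no detectable G-quadruplex-forming sequence. Its methods give 1.25 µg of each plasmid for the lysate, against the 500 ng above. CTnuc and KDnuc share an input, and each ut and tr list has its own. G4-ChIP followed the conventional protocol on chromatin, and G4 DNA-IPnat and G4 DNA-IPdenat used purified, sonicated DNA of untransduced cells, either directly or after heat denaturation and snap chilling. All lists except the nuc pair were sequenced on MinION. The shRNA cells are transduced populations of 1 line, each library pooled replicate preparations before sequencing, and the lists give no reads, so the spread between preparations and the depth at the locus are unknown.

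PCDH9 belongs to the non-clustered delta protocadherins, single-pass membrane proteins whose cadherin repeats mediate adhesion between cells, and it is known mainly from the developing nervous system. As in its relatives, a large coding exon near the start of the gene encodes most of the extracellular part, and very long introns separate it from the small exons of the cytoplasmic tail. A G-quadruplex is a four-stranded fold in which guanines pair in stacked planes, and the canonical sequence signature for it is a series of guanine runs separated by short loops.

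The sequences that show the range at the locus are the promoter, the signature at the start site, the signature under most lists, the guanine runs under the denatured-DNA peaks and the centre of the longest region under 7 lists. They are written 5′ to 3′ with runs of GGG or CCC in capitals. The promoter is the RefSeq sequence of GRCh38.p14 on the minus strand, from 250 bases before to 50 after the start, at chr13:67230287-67230586, and the others were read from hg38 at chr13:67230281-67230305 (minus strand, exon 1), chr13:66481143-66481176 (plus, intron 4), chr13:67028419-67028440 (plus, intron 2), chr13:67000333-67000353 (plus, intron 2) and chr13:67144618-67144767 (plus, intron 2).
PCDH9 promoter: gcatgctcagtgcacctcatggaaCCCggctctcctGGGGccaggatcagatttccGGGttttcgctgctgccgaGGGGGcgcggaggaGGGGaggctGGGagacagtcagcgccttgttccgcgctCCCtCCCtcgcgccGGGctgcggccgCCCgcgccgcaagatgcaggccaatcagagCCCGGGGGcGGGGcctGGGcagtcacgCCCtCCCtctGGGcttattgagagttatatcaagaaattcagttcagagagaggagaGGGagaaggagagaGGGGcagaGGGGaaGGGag
start-site signature: GGGGcagaGGGGaaGGGagagaGGG
signature under 5 lists: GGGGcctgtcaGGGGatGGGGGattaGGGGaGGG
denatured-DNA run, 22 bases: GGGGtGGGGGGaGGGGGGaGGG
denatured-DNA run, 21 bases: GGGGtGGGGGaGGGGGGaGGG
centre of the region under 7 lists: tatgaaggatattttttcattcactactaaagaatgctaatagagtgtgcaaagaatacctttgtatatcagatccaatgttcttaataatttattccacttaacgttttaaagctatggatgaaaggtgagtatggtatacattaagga
The promoter, rich in such runs, lay under peaks of 2 lists. The printed centre of the longest region under 7 lists, 150 bases, held none, but the whole region of 1134 bp held 15 GGG or CCC triplets. The centres of the regions under 7 lists ranked 2 to 5 by length held 2, 1, 4 and 4.

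The 4 MinION AbC lists covered most of the locus in long blocks, and the nuc lists covered less of it, in many short peaks. G4 DNA-IPnat held no member among its 226 peaks and G4 DNA-IPdenat held 7. G4-ChIP held 62, CTnuc 147, KDnuc 199, CTut 81, KDut 43, CTtr 66 and KDtr 103. The peaks covered 1.91% of the window in G4 DNA-IPdenat, 21.0% in G4-ChIP, 19.9% in CTnuc and 33.3% in KDnuc. On MinION the covered share was 72.8% in CTut, 88.6% in KDut, 81.7% in CTtr and 60.5% in KDtr. Over the whole genome the same lists covered between 0.0223% (G4 DNA-IPnat) and 1.10% (G4 DNA-IPdenat). The number of peaks and the covered share therefore did not rank the lists alike, since KDut had the fewest peaks of the AbC lists and the largest covered share.

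Peak length differed between the lists in the same way. The median length of a member was 1099 bp in CTnuc and 1193 bp in KDnuc, 2104 bp in G4 DNA-IPdenat and 2747 bp in G4-ChIP, against 6110 bp in CTut, 15167 bp in KDut, 8625.5 bp in CTtr and 4474 bp in KDtr. The medians of the whole lists were 920 to 1958.5 bp, so members were longer than the typical peak in every list that had any. The longest member, 78247 bp in KDut, ran from within intron 2 across exons 2 and 1 to beyond the start site. Peaks over 10 kb held 90.7% of the peak bases in KDut, 81.5% in CTtr, 66.0% in CTut and 34.3% in KDtr, and there was none in G4-ChIP, CTnuc or KDnuc. Joining peaks less than 3000 bp apart left 8 blocks in KDut, the longest 451970 bp, and 30 in CTut, 18 in CTtr and 49 in KDtr, whereas all 62 G4-ChIP peaks stayed separate. In G4-ChIP no neighbouring members lay that close, so this joining could not merge any. G4-ChIP peaks were called with other settings than the AbC peaks, and the part of calling in this contrast was not tested.

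Members were closest together in the nuc lists and farthest apart in G4 DNA-IPdenat. The median distance between the midpoints of neighbouring members was 4.65 kb in CTnuc, 4.10 kb in KDnuc, 8.36 kb in KDtr, 10.5 kb in CTut, 11.9 kb in G4-ChIP, 12.2 kb in CTtr, 16.4 kb in KDut and 62.1 kb in G4 DNA-IPdenat. The largest stretch without a peak was 7190 bp in KDut and 10791 to 12173 bp in the other MinION AbC lists. It reached 19574 bp in KDnuc, 32236 bp in CTnuc, 56093 bp in G4-ChIP and 226880 bp in G4 DNA-IPdenat. Cut into 10 equal parts, the window had peaks of the AbC lists and G4-ChIP in each part. KDut ranged from 83.8% to 91.7%, CTtr from 68.8% to 92.5%, CTut from 52.4% to 84.0%, KDtr from 47.3% to 73.8%, KDnuc from 28.0% to 45.0%, CTnuc from 15.7% to 26.5% and G4-ChIP from 12.6% to 30.6%. G4 DNA-IPdenat ranged from 0% to 5.74%.

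The nuc counts are lower limits on the peaks first numbered. Peak names carry a running number, and between the first and last member 129 of 276 numbers (46.7%) were absent in CTnuc and 140 of 339 (41.3%) in KDnuc, against 64.7% and 65.2% over those whole lists. No number was absent within the window in the other lists. The rule by which numbers were dropped is not given in the sources used here.

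As a share of its own list, the locus held 4.31% of KDtr (exact Clopper-Pearson 95% interval 3.53 to 5.20%, counting error only), 4.26% of G4-ChIP (3.28 to 5.43%) and 3.87% of CTnuc (3.28 to 4.54%). It held 2.79% of CTtr, 2.57% of KDnuc, 2.32% of CTut and 1.47% of KDut, but 0.0446% of G4 DNA-IPdenat (0.0179 to 0.0918%). The share of G4 DNA-IPdenat was close to the window's 0.0310% of the genome, with an interval that contained it.

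The median fold of the members was below that of the whole list in 6 of the 8 lists, all except KDut and G4 DNA-IPdenat. Fold is the linear enrichment over the background that the authors' peak caller set with the input, without a local estimate in the AbC lists and G4 DNA-IPdenat. Its median over members was 4.73 in G4 DNA-IPdenat, 4.60 in G4-ChIP, 4.68 in CTnuc, 4.62 in KDnuc, 3.53 in CTut, 3.77 in KDut, 3.61 in CTtr and 4.09 in KDtr. These medians sat between percentile 22.0 (CTnuc) and percentile 53.3 (KDut) of the folds of their lists. The highest fold of a member was 6.96, in G4 DNA-IPdenat, while the 8 lists with members reached 18.4 to 51.0. In CTut the highest member, 4.07 at chr13:66805731-66810217 in intron 3, was close to that list's median of 4.01, and in KDut the highest was 4.30 at chr13:67043568-67058734 in intron 2.

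Most members lay just above the lowest fold that a list contained. The share with a fold under 1.2 times that lowest value was 96.8% in G4-ChIP, 93.9% in CTtr, 93.2% in CTnuc, 84.9% in KDnuc, 83.5% in KDtr, 81.5% in CTut and 67.4% in KDut. Over the whole lists it was 87.4% in G4-ChIP, 54.5% in CTtr, 48.9% in CTnuc, 62.2% in KDnuc, 59.1% in KDtr, 40.2% in CTut and 57.2% in KDut. In G4 DNA-IPdenat the members went the other way, with 28.6% under that limit against 50.8% of the list. Of the G4-ChIP members, 21 of 62 had the lowest fold of the list to within 0.01. The share of the whole G4-ChIP list within that margin was not computed, so this count is not a trait of the locus.

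The deposited -log10 q values told the same. A -log10 q of at least 4 was reached by 130 of the 708 members. In CTnuc 11 of 147 reached it (7.48%), against 51.5% of all its peaks, and in KDnuc 22 of 199 (11.1%) against 34.5%. In G4-ChIP it was 2 of 62 against 16.6%, and in CTtr 1 of 66 (1.52%) against 39.2%. The other AbC lists were nearer to their background, with 40 of 81 against 67.2% in CTut, 14 of 43 against 42.1% in KDut and 38 of 103 against 52.6% in KDtr. In G4 DNA-IPdenat 2 of 7 reached it, against 26.5%. At this limit the covered share fell to 0.101% in CTtr and 0.350% in G4-ChIP but was still 41.1% in CTut and 44.1% in KDut, so the continuity of the locus depended on the limit and on the list.

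Every member overlapped a peak of another list. All 708 shared at least 1 bp with another list, against 13.3% of all G4 DNA-IPdenat peaks, 59.8% of G4-ChIP, 87.4% of CTnuc, 56.9% of KDnuc, 82.6% of CTut, 73.5% of KDut, 92.7% of CTtr and 87.9% of KDtr. Together the lists covered 99.1% of the window, so that a peak had little room to meet no other. The overlap was therefore also measured in bases, as the share of a list's bases inside another list, set beside the share of the window that the other list covered.

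In bases, the overlap of most lists was close to the covered share of the other list. Of the bases under G4-ChIP peaks 72.8% lay inside CTut peaks, and CTut covered 72.8% of the window. Of the CTnuc bases 72.8% lay inside CTut as well. Over the 42 ordered pairs of the 7 lists with more than 20 members, the difference between the 2 shares had a median of 1.08 percentage points, and 37 pairs were within 3 points. It was above 0 in 36 pairs. The largest difference was that of CTnuc bases in KDnuc, 41.3% against 33.3% covered, and the same pair in the other direction gave 24.6% against 19.9%. CTnuc bases in CTtr gave 87.5% against 81.7%. On the low side, G4-ChIP bases in KDnuc gave 29.7% against 33.3%. The ordered pairs share lists, and the differences were not tested.

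**Figure D1:**
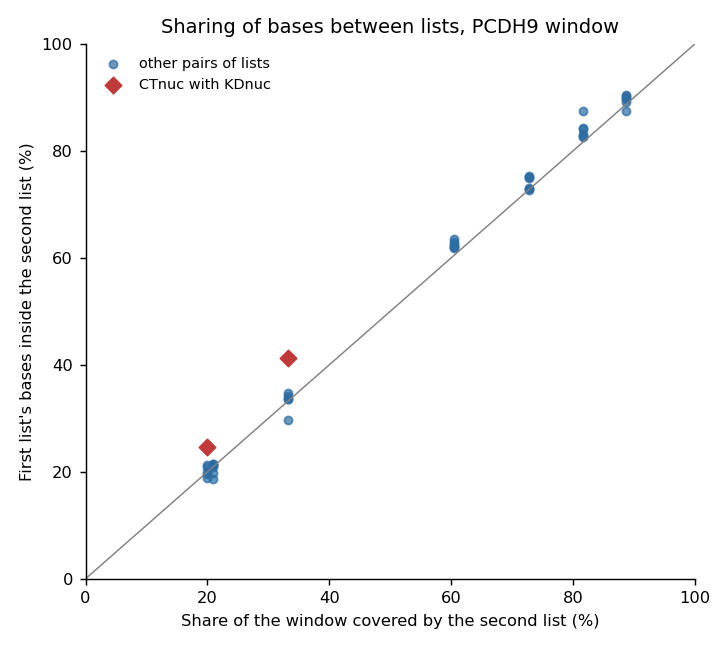
For each ordered pair of the 7 lists with more than 20 members, the share of the first list's bases that lay inside the second list (vertical axis, %) against the share of the window that the second list covered (horizontal axis, %); the line marks equality. The points follow the line, and CTnuc with KDnuc (diamonds) lies above it, at 41.3% against 33.3% and at 24.6% against 19.9%.

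The denatured-DNA peaks met some lists less than their covered share. Of their bases 0% lay in CTnuc, which covered 19.9% of the window, 15.9% in KDnuc (33.3% covered) and 25.0% in KDtr (60.5% covered). They lay at 85.1% in KDut (88.6% covered) and at 25.2% in G4-ChIP (21.0% covered). With 7 peaks and 17999 bp, these shares rest on few regions.

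Per base, 4 lists was the commonest depth, with 36.2% of the window under exactly 4 lists, 22.9% under 3 and 21.2% under 5. No base was under 8 or 9 lists, and 4728 bp in 7 regions were under 7. The 5 longest of these all lay in intron 2 of the longest coding transcript and lacked G4 DNA-IPnat and G4 DNA-IPdenat. The shortest of the 5 also lay within an exon of another transcript. The longest, chr13:67144126-67145259, was 1134 bp long, 85.8 kb inside the gene, with a GC content of 33.8% and no canonical signature. Its folds were 4.66 in G4-ChIP, 4.83 in CTnuc, 4.74 in KDnuc, 3.35 in CTut, 3.80 in KDut, 3.74 in CTtr and 4.09 in KDtr, all ordinary values for members of those lists. The next were chr13:67133519-67134364 (846 bp), chr13:67087515-67088256 (742 bp), chr13:67177898-67178578 (681 bp) and chr13:67223867-67224369 (503 bp), and none of the 5 held a signature. Bases under more lists were no richer in guanine runs: GGG and CCC triplets, counted at every base, numbered 19.7 per kb under exactly 1 list, 14.4 under 4 and 12.9 under 7.

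Only 8364 bp (0.890%) were in no list, in 5 stretches of introns 3 and 4. The longest was chr13:66600277-66603973, 3697 bp, 628 kb inside the gene. These stretches together had a GC content of 32.2% and 11.4 triplets per kb, below the window's 34.6% and 15.3. Singly they ranged from 24.6% to 43.4% in GC and from 5.78 to 22.9 triplets per kb, so some were above the window.

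Members were mostly intronic, as the gene itself is. Of the 708 members 660 (93.2%) lay in introns, 6 lay outside the gene and 42 (5.93%) shared at least 1 bp with an annotated exon. By list, 3 of 62 were exonic in G4-ChIP, 6 of 147 in CTnuc, 7 of 199 in KDnuc, 7 of 81 in CTut, 4 of 43 in KDut, 6 of 66 in CTtr, 9 of 103 in KDtr and 0 of 7 in G4 DNA-IPdenat. Over all peaks in protein-coding genes, the exonic share was 19.4% in G4-ChIP, 19% in CTnuc, 24.7% in KDnuc, 31.2% in CTut, 28.7% in KDut, 26.3% in CTtr, 26.2% in KDtr and 2% in G4 DNA-IPdenat. Of the 42, 19 touched an exon of the longest coding transcript, which has 5 exons, a count added after the data were seen. The other 23 touched exons of other transcripts only, among them a very long exon of a short transcript that takes in exon 2 and the adjoining part of intron 2.

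The 3 long introns were covered alike, with intron 2 somewhat ahead. Intron 2 (321799 bp), intron 3 (272092 bp) and intron 4 (326181 bp) had covered shares of 22.9%, 19.9% and 18.6% in G4-ChIP and of 24.5%, 19.1% and 17.2% in CTnuc. In CTut they were 81.0%, 68.5% and 68.4%, in CTtr 89.1%, 80.4% and 76.3% and in KDtr 69.4%, 59.5% and 55.9%. KDut had 89.6%, 88.9% and 86.9%. In KDnuc intron 3 led with 35.8%, against 33.4% and 30.3%, and in G4 DNA-IPdenat with 3.78%, against 1.04% and 1.34%. Intron 2 thus had the largest share of the 3 in 6 of 8 lists.

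The exons differed by list more than the introns did. Exons 3 and 4 are shorter than any member, so a single peak can cover either wholly, and the part of length in this contrast was not tested. Exon 2 (3171 bp), the large exon, was covered over 98.6% in KDnuc, 100% in KDut, 80.5% in CTtr, 34.0% in CTut and 12.3% in KDtr, and by no peak in G4-ChIP or CTnuc. Exon 3 (102 bp) lay entirely under peaks in the 4 MinION AbC lists and in no other. Exon 4 (202 bp) lay entirely under peaks of G4-ChIP, CTut, CTtr and KDtr, the G4-ChIP peak at chr13:66624229-66634226 being the longest of that list at the locus (9998 bp, fold 5.05). Exon 5 (2195 bp), at the 3′ end, was covered entirely in CTut, KDut and CTtr.

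Around the start site the KD lists came closer than the CT lists. The annotated gene starts at position 67230445 and the longest coding transcript, like the printed promoter, at 67230336. The start of the gene was under the KDnuc peak chr13:67229375-67232576 (fold 4.86) and the 78247-bp KDut peak chr13:67162877-67241123 (fold 4.03). In KDtr the nearest peak, chr13:67229243-67229852 (fold 4.12), ended 593 bp inside the gene. In CTut the nearest peak lay 1017 bp upstream, in G4-ChIP 1099 bp upstream, in CTtr 2107 bp upstream, and in CTnuc 6076 bp inside the gene. The nearest G4 DNA-IPdenat peak lay 119095 bp upstream.

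Exon 1 (557 bp) was covered entirely in KDnuc and KDut and over 13.1% in KDtr, and not at all in CTnuc, CTut or CTtr. All 3 KD lists and no CT list thus met it. Over the whole window, the stretch at exon 1 included, 6361 bp in 10 runs (0.677% of the window) lay under all 3 KD lists and no CT list. Under all 3 CT lists and no KD list lay 2521 bp in 7 runs (0.268%). Exon 1 was singled out after its values were seen, and with 3 lists a side an exact permutation of the labels cannot give a two-sided p below 0.1.

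The printed promoter, 300 bases, was covered entirely in KDnuc and KDut and by 0 bases in every other list. Its GC content was 65.7% and it held 30 triplets, against a median of 18 over the 35116 RefSeq promoters of the same length, of which 17.5% held more. The canonical signature, at least 4 runs of GGG with loops of 1 to 7 bases on either strand, was not complete within the 300 bases. It was present in 25.0% of the promoters. The start-site signature printed above lies wholly within exon 1. It begins in the part of exon 1 that the promoter sequence includes and extends a few bases beyond the end of that sequence. This signature too was under peaks of KDnuc and KDut only.

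Over all members, none of the 4 measures of the locus moved in the same direction with the CGGBP1 shRNA in all 3 pairs. The question of the comparison was whether G-quadruplex capture differs when CGGBP1 is reduced, and the targeted gene is not measured in these lists. The number of peaks was 147 in CTnuc and 199 in KDnuc, 81 in CTut and 43 in KDut, and 66 in CTtr and 103 in KDtr. It was higher in KD in the nuc and tr pairs and lower in the ut pair, and the CT and KD values overlapped. The mean was 98 ± 43.1 (SD, n = 3 lists) in CT and 115 ± 78.7 in KD, and the mean difference of 17 ± 48.2 was within the spread between pairs (exact two-sided sign-flip permutation test over 3 pairs, p = 0.75, smallest possible 0.25).

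The covered share rose by 13.4 percentage points in the nuc pair and by 15.9 in the ut pair and fell by 21.2 in the tr pair. Its mean was 58.1% ± 33.4 in CT and 60.8% ± 27.7 in KD, a difference of 2.69 ± 20.7 points (exact sign-flip permutation, p = 1). Among peaks with a -log10 q of at least 4 the covered share was higher in KD in all 3 pairs, with 1.24% and 4.08% in CTnuc and KDnuc, 41.1% and 44.1% in CTut and KDut, and 0.101% and 24.5% in CTtr and KDtr. The tr pair thus turned from -21.2 to 24.4 points with the limit, and the mean difference was 10.1 points (exact sign-flip permutation, p = 0.25, the smallest possible). The CTtr value rests on 1 member. The number of members at this limit was lower in KD in the ut pair (40 in CTut and 14 in KDut) and higher in the nuc and tr pairs. The median fold was 4.68 and 4.62 in CTnuc and KDnuc, 3.53 and 3.77 in CTut and KDut, and 3.61 and 4.09 in CTtr and KDtr. The mean difference in median fold was 0.218 ± 0.270 (exact sign-flip permutation, p = 0.5). The locus held a smaller share of the list in KD in the nuc and ut pairs, by -1.31 and -0.848 points, and a larger one in the tr pair, by 1.52 points, with a mean of -0.210 ± 1.52 (exact sign-flip permutation, p = 1). None of the 4 differences exceeded the spread between pairs, and 3 pairs cannot reach 0.05.

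Base by base, KD alone covered more of the window than CT alone in the nuc and ut pairs and less in the tr pair. In the ut pair 64.8% of the window was under both lists, 23.8% under KD alone and 7.92% under CT alone. In the nuc pair 8.20% was under both, 25.1% under KD alone and 11.7% under CT alone. In the tr pair 50.9% was under both, 9.64% under KD alone and 30.8% under CT alone. Of the CTut bases 89.1% lay in KDut, which covered 88.6% of the window. All 6 AbC lists together shared 22635 bp, 2.41% of the window.

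In 5 of the 8 lists the bases under peaks were lower in GC than the rest of the locus. The window is poor in GC, at 34.6%. In the 4 MinION AbC lists and G4-ChIP the covered bases were lower in GC than the rest of the window, with 33.9% against 34.8% in G4-ChIP, 34.3% against 35.5% in CTut, 34.4% against 36.6% in KDut, 34.4% against 35.5% in CTtr and 34.1% against 35.5% in KDtr. In the nuc lists and G4 DNA-IPdenat they were higher, with 35.1% against 34.5% in CTnuc, 35.7% against 34.1% in KDnuc and 38.1% against 34.6% in G4 DNA-IPdenat. Against the bases in no list at all (32.2%) the covered bases were higher in all 8 lists, so the direction depends on the reference. That reference is only 8364 bp in 5 stretches of unlike GC content. Members had a lower median GC than their whole list in every list, for example 34.7% against 39.0% in CTnuc and 34.0% against 38.5% in CTut.

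The window held 28 canonical signatures, 29.8 per Mb, against 77.3 per Mb on chromosome 13 and 124 per Mb in hg38 without chromosome Y. KDut peaks wholly covered 24 of the 28 (85.7%, with 88.6% of the window covered), CTut and CTtr 18 each (64.3%, with 72.8% and 81.7% covered), and KDtr 13 (46.4%, with 60.5% covered). KDnuc covered 5 (17.9%, with 33.3% covered), CTnuc 2 (7.14%, with 19.9% covered) and G4-ChIP 8 (28.6%, with 21.0% covered). Outside G4 DNA-IPdenat, the share of signatures wholly under peaks was thus below the covered share in the 6 AbC lists and above it in G4-ChIP. This depended on the rule in KDut, where peaks touched 25 of the 28 signatures (89.3%), just above the covered share. KDnuc peaks touched 6 (21.4%), still below it. The signature wholly under the largest number of lists, 5, was that at chr13:66481143-66481176 printed above, which lay in G4-ChIP, CTnuc, CTut, CTtr and KDtr, and a KDut peak ended on its first base.

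The 4 MinION AbC lists, whose members had the longest medians, had more members that held a signature than G4-ChIP and the nuc lists. Among those 4 the counts did not follow the median length. The count, with the share of the whole list in parentheses, was 5 of 62 in G4-ChIP (8.73%), 2 of 147 in CTnuc (5.37%), 5 of 199 in KDnuc (4.97%), 17 of 81 in CTut (8.84%), 14 of 43 in KDut (11.7%), 13 of 66 in CTtr (11.2%) and 11 of 103 in KDtr (9.33%). The members of the 4 MinION AbC lists had median lengths of 4474 to 15167 bp, and the part of length in these counts was not tested.

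The 7 denatured-DNA peaks were of another kind. They lay in intron 4 (chr13:66417729-66418978 with fold 5.01 and chr13:66421117-66424224 with fold 6.96), intron 3 (chr13:66651105-66654241 with fold 4.54, chr13:66738240-66743636 with fold 6.75 and chr13:66776013-66777773 with fold 4.72) and intron 2 (chr13:66999378-67000619 with fold 4.73 and chr13:67026356-67028459 with fold 4.63). Of the 7, 3 held a canonical signature, against 9% of all G4 DNA-IPdenat peaks, although they covered 1.91% of the window and met 3 of its 28 signatures (10.7%). The 3 signatures were nearly the same: the 22-base run printed above occurred at chr13:67028419-67028440 and again at chr13:66743345-66743366, and the 21-base run differed from it in the length of 1 guanine run.

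These peaks shared sequence with one another. Aligned with blastn, 6 of the 7 matched at least 1 other, in 14 of 21 pairs, over up to 3141 bp and at 86.9% to 96.9% identity. The 22-base run occurred 215 times on chromosome 13 and 6917 times in hg38 without chromosome Y, and the 21-base run 6 and 258 times. The runs were in 233 of the 15709 G4 DNA-IPdenat peaks (1.48%) and in 0.105% to 0.581% of the peaks of G4-ChIP and the AbC lists.

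The dense run of peaks did not end at the gene. The window of equal length on the downstream side (chr13:65360001-66300000) held 721 peaks and that on the upstream side (chr13:67240001-68180000) also held 721, against 708 at PCDH9. The covered share was highest at PCDH9 in all 6 AbC lists: in CTut 72.8% against 46.4% downstream and 64.3% upstream, in KDut 88.6% against 67.8% and 82.6%, in CTtr 81.7% against 59.8% and 73.2%, and in KDtr 60.5% against 44.5% and 48.1%. CTnuc had 19.9% against 9.28% and 15.4%, and KDnuc 33.3% against 23.8% and 29.9%. G4-ChIP (21.0% against 21.9% and 25.8%) and G4 DNA-IPdenat (1.91% against 4.74% and 4.28%) were lower at PCDH9 than in both neighbours. Nearest to the limits of the window, the folds of the peaks just inside were 3.22 to 5.14 and those just outside 3.28 to 5.76.

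**Figure D2:**
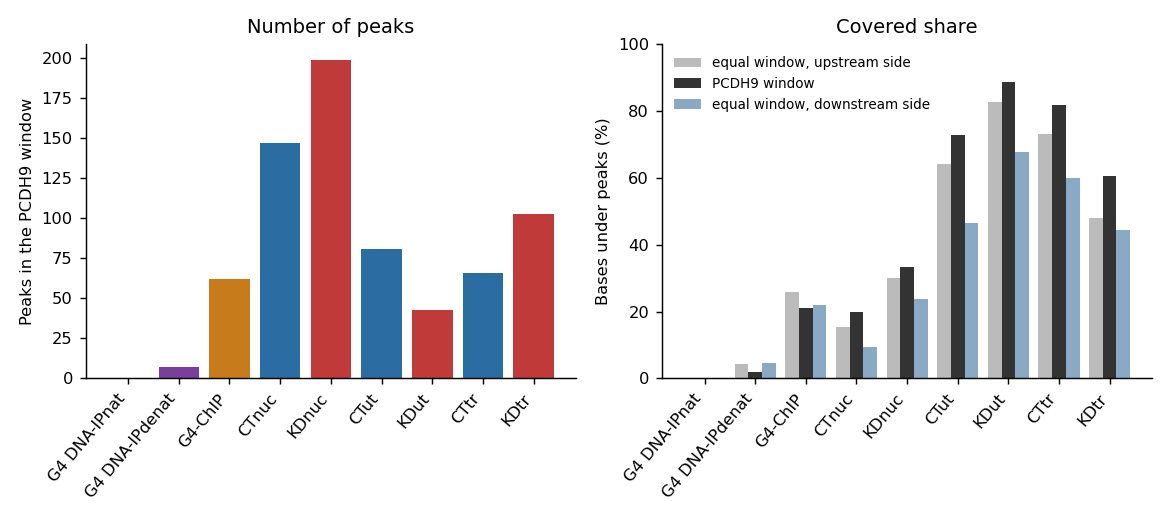
Left, number of peaks in the PCDH9 window by list (1 library each); right, share of bases under peaks (%) in the PCDH9 window and in the equal windows on either side. In the 6 AbC lists the PCDH9 window is covered most, as in KDut with 88.6% against 82.6% and 67.8%.

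Along chromosome 13, cut into 105 windows of the same length with PCDH9 among them, none was covered more than PCDH9 in CTut, KDut or CTtr, and 1 was in CTnuc, KDnuc and KDtr each. In G4-ChIP 6 were covered more and in G4 DNA-IPdenat 20. Most windows were empty in the AbC lists, with 63 to 82 of the 105 holding no peak.

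The annotated genes inside the locus are antisense or small RNA genes. PCDH9-AS1 (chr13:66303871-66323561), PCDH9-AS2 (chr13:66825169-66915031), PCDH9-AS3 (chr13:66977432-66985776), PCDH9-AS4 (chr13:66990886-67002007) and the lncRNA gene ENSG00000285588 (chr13:67121081-67156624) lie on the opposite strand. RNU7-87P (chr13:66630715-66630776), which the annotation types as small nuclear RNA, lies on the same strand. Peaks have no strand, so a peak within an antisense gene cannot be assigned to it rather than to PCDH9. The strongest G4-ChIP member, chr13:66979438-66982398 with fold 5.45, lay in intron 2 within PCDH9-AS3.

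No other protocadherin gene approached PCDH9 in number of peaks. The density was not particular to the gene, since the windows of equal length on either side held 721 peaks each. The gene itself held 701 peaks, 756 per Mb. The 14 other entries of the list, 11 genes and the clusters PCDHA, PCDHB and PCDHG on chromosome 5, held 17 peaks in all, of which 14 were from G4 DNA-IPdenat, 2 from G4-ChIP and 1 from an AbC list (KDnuc, in the PCDHB cluster). PCDH11X, a gene of similar length (843.97 kb), had 6 peaks, all from G4 DNA-IPdenat. PCDH15, which is longer, had 5, the PCDHB cluster 3, the PCDHA cluster 2 and PCDH19 1. The other 9 had none, among them PCDH8, PCDH17 and PCDH20, which lie on chromosome 13 as PCDH9 does.

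Among 322 protein-coding genes of at least 500 kb, PCDH9 had the most peaks and the largest covered share in all 7 lists other than the purified-DNA ones. It lies in a dense run of peaks that extends beyond it on both sides. The next largest covered share was 3.66%, that of CCDC178 in KDut. In G4 DNA-IPdenat 31 of these genes had more peaks than PCDH9 and 39 a larger covered share, led by DNAH14 with 15.8%. Of the 7 others with at least 20 peaks, the profile most like that of PCDH9, measured by the cosine of peaks per 1000 peaks of each list over the 9 lists, was that of RYR2 (cosine 0.827, 26 peaks), followed by DNAH14 (0.770, 43 peaks), GPC5 (0.630, 65 peaks), CCDC178 (0.559, 41 peaks) and GPC6 (0.409, 47 peaks). With 7 candidates and few peaks in each, this order is a description only.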

How the data were processed

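The members, gene lists and comparisons were chosen with earlier results of these data known. Of 16 HEK293T samples, 9 had a deposited peak list and 7 inputs had none. The authors aligned reads to hg38 with minimap2, kept unique alignments and called broad peaks against the input with MACS2 (versions not given in the sources used here). The sources name bowtie2 as well for the nuc reads, so the aligner of the nuc pair is uncertain, and its part in the difference from the MinION lists was not tested. AbC and G4 DNA-IPdenat peaks were called with a wider bandwidth and without a local background (nolambda), and G4-ChIP and G4 DNA-IPnat peaks at the default bandwidth. The deposited columns are the mean fold enrichment (a linear ratio) over input, -log10 p, -log10 q and a score derived from the -log10 q. Of these, the fold and -log10 q were used. The lists hold no read counts, so the depth behind each peak is unknown and its part in any value was not tested.

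Peak midpoints, covered bases and overlaps of at least 1 bp were computed with Python 3.11.15, numpy 2.4.6, pandas 2.3.3 and pysam 0.24.0. Exons came from GENCODE on hg38, sequence from hg38, promoters from RefSeq, alignments from blastn 2.17.0 (e-value limit 1e-20). CT and KD were compared over 3 pairs (nuc, ut, tr), which share a form of the experiment in the labels, by exact sign-flip permutation, two-sided. As each group has 1 library per form, p-values measure only the spread between forms. The functions were tested on simulated data, where 28 of 28 checks recovered the known answer. Intervals are exact Clopper-Pearson 95% and cover counting error only.

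Genes were named by a rule: PCDH9 and genes overlapping the window, the protocadherin list, and the 5 coding genes of at least 500 kb and 20 peaks with the most similar profile. Peaks were named for the highest fold or length in a list, for lying in regions under the most lists, on exons, within 3 kb of the start site, or at the limits of the window, and for holding signatures. The 7 denatured-DNA peaks were named in full. The sequence at their centres is not reported here. Alternatives were a -log10 q of at least 4, any overlap with the window, the limits of the gene, merging peaks under 3000 bp apart, overlaps of 50% and 70%, other exon definitions, another GC reference, and leaving out each pair.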

Additional observations from a re-analysis of the deposited data

Results flagged for a closer look

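The 3 pairs disagreed in the direction of the difference between KD and CT at the PCDH9 locus in all 4 measures over all members, with 1 pair going against the other 2 in each. The number of peaks differed by -38 in the ut pair (81 in CT and 43 in KD) and by 52 and 37 in the nuc and tr pairs. The share of the list's peaks differed by 1.52 percentage points in the tr pair and by -1.31 and -0.848 in the nuc and ut pairs. The covered share differed by -21.2 points in the tr pair and by 13.4 and 15.9 in the nuc and ut pairs. The median fold differed by -0.0625 in the nuc pair (4.68 in CT and 4.62 in KD) and by 0.239 and 0.477 in the ut and tr pairs. Among peaks with a -log10 q of at least 4 the covered share was higher in KD in all 3 pairs, but CTtr then held only 1 member. The number of peaks at that limit was still lower in KD in the ut pair. Each value rests on 1 list a side, and the differences between pairs were not tested.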

How the results depend on the processing

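Under a -log10 q of at least 4, the members fell from 708 to 130 and those overlapping another list to 107. The overlapping share of the whole lists at that limit was not computed. Under the same limit the mean KD minus CT share of the list turned from -0.210 to 0.870 points and that of the median fold from 0.218 to -0.0663. The covered share difference went from 2.69 to 10.1 points, with all 3 pairs then higher in KD and CTtr holding only 1 member. Merging peaks less than 3000 bp apart left 332 members. Of the 42 exonic members, 24 had their midpoint in an exon and 19 touched the longest coding transcript, the latter chosen after seeing the data. The median over lists of the GC difference between covered and other bases was -0.99 points, and 2.22 against bases in no list. Leaving out 1 pair moved the mean KD minus CT difference between -0.5 and 44.5 for peaks, -1.08 and 0.338 points for the share of the list, -3.90 and 14.6 points for the covered share, and 0.0882 and 0.358 for the median fold. The sign turned without the nuc pair for peaks (-0.5), and without the nuc or the ut pair for the share of the list (0.338 and 0.109) and the covered share (-2.67 and -3.90). Without the replicate block (an exact permutation of the labels, smallest p 0.1) the differences of 17 peaks, -0.210 points of the list, 2.69 points covered and 0.218 in fold had p = 0.8, 0.9, 0.9 and 0.6, and neither form could reach 0.05. Of 48 values for single lists, 26 stayed within 1.5 times the value reported, and the 22 others moved under the stricter q or the merging. The causes were not tested.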
